A study of Homo sapiens with 6 samples.

Results

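The effect of hairpins against SETDB1 that MDA-MB-231 and MDA-MB-453 breast cancer cells had in common was measured over all 6 arrays of the series. The arrays were taken by title: 3 name a hairpin, shRNA-1 or shRNA-3, whose condition label is SETDB1 knock-down, and 3 name the control hairpin, shCtrl. The titles and labels give no sequence for any hairpin. MDA-MB-231 cells contributed 2 arrays with hairpin shRNA-1 and 2 with shCtrl, and MDA-MB-453 cells 1 array with shRNA-3 and 1 with shCtrl. The analysis kept the genes that the scanner's detection p put above background (p below 0.05) on all 6 arrays, which were 8952 of the 20046 genes on the array. Genes that were silent in 1 line or 1 arm are therefore not part of it. MDA-MB-231 cells are mesenchymal in character and lack hormone receptors, whereas MDA-MB-453 cells are luminal in character and carry the androgen receptor. Both were grown in DMEM with serum, total RNA was amplified to biotin-labelled cRNA, and all 6 arrays carry the same batch label. The hairpin changed together with the line, so the effect of a second hairpin and that of a second line cannot be told apart. The labels give no clone, infection or culture for any array, so p-values reflect how far these arrays vary, which may be technical variation alone.

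SETDB1 places methyl groups on lysine 9 of histone H3 and is known for keeping endogenous retroviruses and germline genes silent. BMI1, named with it and MYC in the series title, belongs to the Polycomb complex that ubiquitinates histone H2A. MYC is a transcription factor that drives ribosome production and entry into S phase. Loss of H3K9 methylation has been linked in other cells to expression of retroelements, germline genes and interferon-stimulated genes. Gene lists for germline, interferon, growth, stress and cell identity genes are described below. They were chosen with earlier results of these data known, so their shares are a description without a test.

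Each difference below is on the log2 scale of normalised intensity, hairpin minus control, so that 1 is a 2-fold change. The effect across lines is the arm term of a limma fit with cell line as the other term, given with its standard error. It weights MDA-MB-231 at 66.7% and MDA-MB-453 at 33.3%. A gene was called, and is said to have risen or fallen, when its adjusted p was below 0.05 over the 8952 genes. Because a gene that moves unlike in the 2 lines has a large residual in this fit, calls with the same direction in both lines follow from the test itself. The difference of the effect between the lines was tested separately, in a fit of the 4 group means.

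The promoters of 3 genes are shown because they belong to members described below whose regulators are known, with 250 bases before and 50 after the RefSeq start on build GRCh38.p14. HSPA5 encodes the main chaperone of the endoplasmic reticulum, and the capitals in its promoter (chr9:125241294-125241593, minus strand) mark a match to the endoplasmic reticulum stress element, CCAAT and CCACG with any 9 bases between them. IFI27 is an interferon-stimulated gene, and the capitals in its promoter (chr14:94110486-94110785, plus strand) mark 2 matches to the core of the interferon-stimulated response element, GAAA and GAAA with any 2 bases between them, of which the upstream match is on the other strand. In the BMI1 promoter (chr10:22320849-22321148, plus strand) the capitals mark CACGTG, the E-box that MYC and its partners bind.
HSPA5: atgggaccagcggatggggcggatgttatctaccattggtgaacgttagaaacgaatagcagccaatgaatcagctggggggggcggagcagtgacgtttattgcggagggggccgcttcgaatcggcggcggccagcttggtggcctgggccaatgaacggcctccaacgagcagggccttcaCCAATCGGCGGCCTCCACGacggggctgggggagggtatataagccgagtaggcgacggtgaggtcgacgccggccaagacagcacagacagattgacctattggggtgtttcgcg
IFI27: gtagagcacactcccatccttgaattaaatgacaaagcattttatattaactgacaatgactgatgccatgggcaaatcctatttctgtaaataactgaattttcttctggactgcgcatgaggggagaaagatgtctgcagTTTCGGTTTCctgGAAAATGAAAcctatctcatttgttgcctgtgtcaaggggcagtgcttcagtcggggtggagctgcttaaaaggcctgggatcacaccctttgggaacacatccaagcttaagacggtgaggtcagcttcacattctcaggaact
BMI1: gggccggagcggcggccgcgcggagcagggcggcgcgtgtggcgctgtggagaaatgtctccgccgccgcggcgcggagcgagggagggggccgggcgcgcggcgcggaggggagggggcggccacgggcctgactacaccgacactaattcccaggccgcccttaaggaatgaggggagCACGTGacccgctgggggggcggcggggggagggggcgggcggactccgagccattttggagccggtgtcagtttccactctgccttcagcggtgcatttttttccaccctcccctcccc
These letters were searched on both strands, and the matches lie 66 bases before the start in HSPA5, 108 in IFI27 at the upstream match and 70 in BMI1. Over 27305 RefSeq promoters of the same 300 bases, 0.0806% hold the stress element, 3.65% the interferon core and 7.43% the E-box. Among the 7402 tested genes with such a promoter the shares were 0.176%, 2.73% and 10.9%. The E-box stood in 13.4% of 374 promoters of genes called higher and in 10.5% of 401 promoters of genes called lower, and the interferon core in 2.94% and 2.49%. The stress element was found in 1 promoter of a gene called higher, that of HSPA5, and in 0 called lower. A match describes the letters and does not show that a factor binds there.

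Between 19230 and 21238 of 48107 probes were detected per array. The median raw intensity was 47.9 on the MDA-MB-453 control and 60.4 with shRNA-3, the widest gap of the series, and the MDA-MB-231 arrays lay between them. Over the tested genes the MDA-MB-231 controls correlated at 0.992 with each other, the MDA-MB-231 arrays labelled knockdown at 0.986, and arrays of opposite arms in that line at 0.912 to 0.930. The 2 MDA-MB-453 arrays correlated at 0.977, and arrays of different lines at 0.767 to 0.812. Of 19 marker genes of MDA-MB-231, such as VIM and AXL, 19 were detected on each of its arrays and 4 or 5 on those of MDA-MB-453. Of 19 marker genes of MDA-MB-453, 19 were detected on each of its own arrays.

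SETDB1 itself was not measurably lower. It read 7.40 and 7.42 on the MDA-MB-231 controls and 7.29 and 7.21 with shRNA-1. In MDA-MB-453 it read 8.98 in the control and 8.73 with shRNA-3. Each hairpin array lay below the controls of its line. Median scaling turned the MDA-MB-453 difference to 0.12, where the median of all tested genes was 0.34. The effect across lines was -0.19 ± 0.16 (limma, adjusted p = 0.426), and its 95% interval runs from a 1.47-fold fall to a 1.13-fold rise. Only 1 probe of the array names SETDB1, and whether the hairpins' target lies inside its transcript was not tested. The arrays are called "labelled knockdown" below for this reason, and every direction rests on the labels.

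BMI1 was lower by a similar amount in both lines after quantile normalisation, with differences of -1.30 and -0.83 under median scaling. It read 11.16 and 11.36 on the MDA-MB-231 controls and 9.91 and 10.24 with shRNA-1, and 10.59 and 9.46 on the MDA-MB-453 control and its labelled knockdown. The arms did not overlap in either line, and the differences were -1.18 and -1.14. Across lines this was -1.17 ± 0.18, 2.24-fold lower (limma, adjusted p = 0.0306), and the difference between the lines was -0.05 (adjusted p = 0.939), which with 1 MDA-MB-453 array per arm does not show that they fell alike. BMI1 lies on chromosome 10, whose tested genes had a median difference of -0.37 in MDA-MB-231 and 0.14 in MDA-MB-453, and the part of that shift in its fall in MDA-MB-231 was not tested. The call was lost when genes detected on only some arrays were tested too (adjusted p = 0.0564 with detection on at least 2 arrays), with the replicate number as a block (0.102), and with each of the 4 MDA-MB-231 arrays left out in turn.

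MYC differed little between the arms. It read 11.64 and 11.64 on the MDA-MB-231 controls, 11.48 and 11.62 with shRNA-1, 9.86 on the MDA-MB-453 control and 9.46 with shRNA-3. The effect across lines was -0.19 ± 0.17 (limma, adjusted p = 0.438), and a further MYC probe had differences of -0.14 and -0.33.

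**Figure D1:**
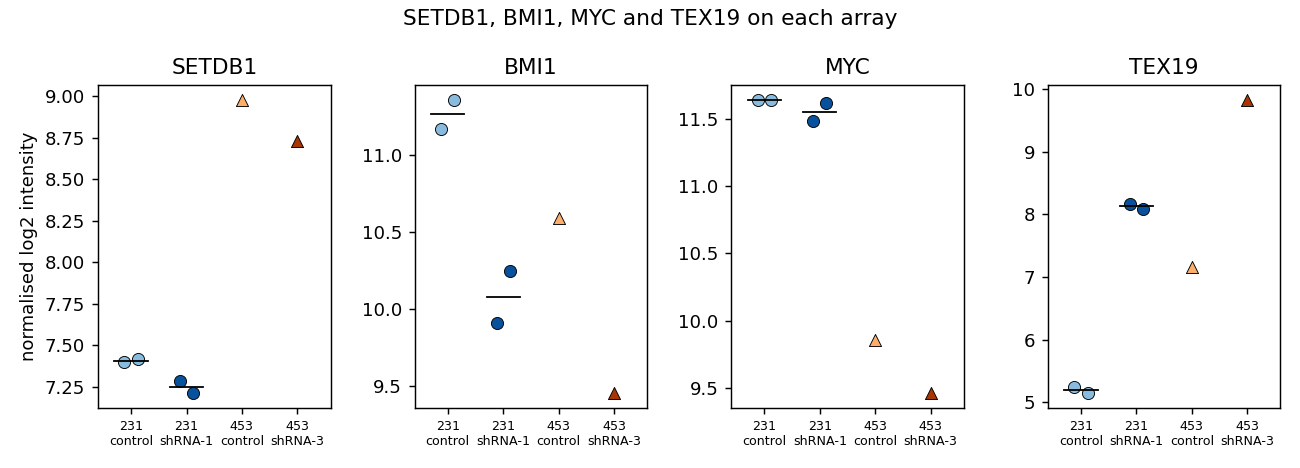
Normalised log2 intensity (vertical axis) of SETDB1, BMI1, MYC and TEX19 on each of the 6 arrays, by line and arm. Points are arrays and short lines are means of 2 arrays. BMI1 is lower and TEX19 higher on every array labelled knockdown than on the controls of its line, while the SETDB1 arms lie within 0.25 of each other.

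In all, 956 of the 8952 genes were called (10.7%), 452 higher (5.05%) and 504 lower (5.63%). Of these, 234 were higher and 240 lower by 2-fold or more. An unadjusted p below 0.05 was reached by 1524 genes that were higher and 1548 that were lower. For each called gene the arms did not overlap within either line and had the same order in both, which 1978 of all tested genes (22.1%) did upward and 2029 (22.7%) downward. Only TEX19, DHRS3 and THBS1 had an adjusted p under 0.03, and the next 124 genes share the value 0.0306, so the adjusted p does not rank them. The number called rests on the detection rule and on the MDA-MB-231 arrays. With genes detected on at least 2 arrays tested as well, 5 genes were called, and with the replicate number as a block, or with each of the 4 MDA-MB-231 arrays left out in turn, TEX19 was the sole call. With arrays scaled to their medians in place of quantile normalisation, 486 genes were called higher and 140 lower.

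The called genes had moved further in MDA-MB-231. The median difference of those called higher was 1.26 in MDA-MB-231 and 0.56 in MDA-MB-453, and of those called lower -1.14 and -0.62. The effect differed between the lines for 1070 of all tested genes (12%), and for 205 of the called genes. In 204 of these 205 the effect was larger in MDA-MB-231, and in 1, PRSS23, it was larger in MDA-MB-453. A call in the arm term thus ranges from genes that moved alike, such as DHRS3 (1.75 and 1.86), to KRT19, whose difference was 4.48 in MDA-MB-231 and 0.03 in MDA-MB-453.

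Across all tested genes the 2 lines' differences were loosely related. Pearson's r between them was 0.23 and Spearman's rho 0.26 over the 8952 genes, a description without a test, since genes are not replicates. The 2 differences share no array, and r was 0.176 to 0.275 when 1 array of each MDA-MB-231 arm was used. The sign was the same for 59.2% of genes. A difference of 2-fold or more was seen for 1453 genes in MDA-MB-231 (16.2%) and 252 in MDA-MB-453 (2.82%). The 2 sets had 70 genes in common that moved the same way, 4.82% of the first and 27.8% of the second, of which 25 were higher and 45 lower. Another 22 were at least 2-fold apart in opposite directions.

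**Figure D2:**
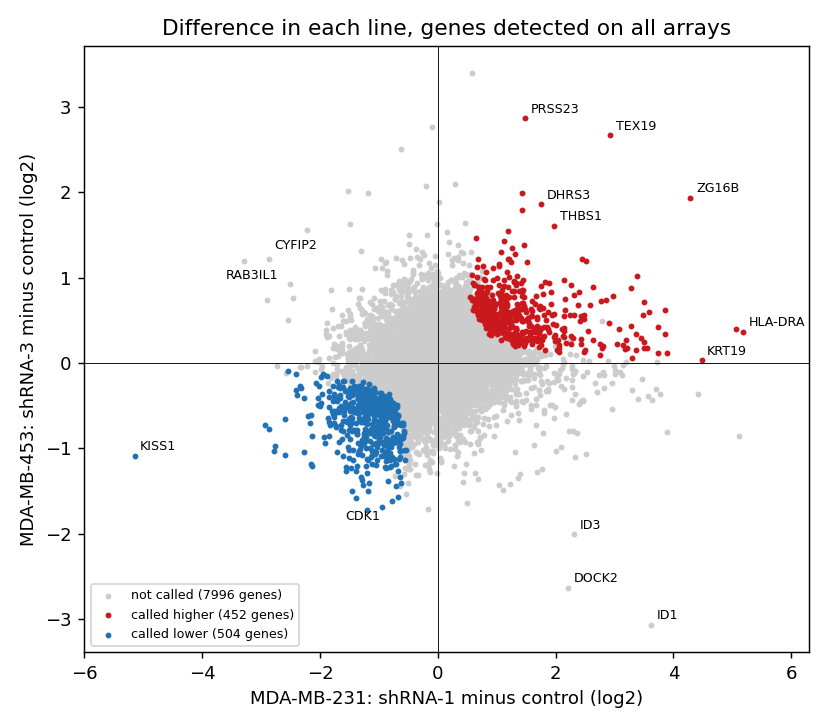
Log2 difference of labelled knockdown and control in MDA-MB-231 (horizontal axis, mean of 2 arrays minus mean of 2) against that in MDA-MB-453 (vertical axis, 1 array minus 1) for the 8952 tested genes. Red and blue points are the 452 genes called higher and the 504 called lower. TEX19, DHRS3 and THBS1 stand out in both lines, KRT19 and HLA-DRA mainly in MDA-MB-231, and ID1, ID3 and DOCK2 moved in opposite directions.

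TEX19, a gene of the germline and placenta that is otherwise mostly silent, had the lowest p of all genes. It read 5.25 and 5.15 on the MDA-MB-231 controls and 8.17 and 8.08 with shRNA-1. In MDA-MB-453 it rose from 7.16 to 9.84. Each array labelled knockdown stood above every control of either line. The effect was 2.84 ± 0.16, or 7.18-fold (limma, adjusted p = 0.00152), and did not measurably differ between the lines (adjusted p = 0.582). It was the sole gene called under each of the 16 alternative settings, with a highest adjusted p of 0.0463. By an exact permutation of the arm labels within lines its p was 0.167, the smallest that the 12 arrangements allow. The size of the TEX19 effect ranged from 2.24 to 2.95 over the 16 alternative settings. Without background correction its difference in MDA-MB-231 was 2.23, against 2.93 with it.

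DHRS3, an enzyme that reduces retinaldehyde to retinol, and THBS1, the matrix glycoprotein thrombospondin-1, had the next lowest. DHRS3 read 6.66, 6.50 and, on the MDA-MB-453 control, 6.52, against 8.41, 8.26 and 8.39 on the arrays labelled knockdown. The control and knockdown values were thus nearly the same in both lines, and the effect was 1.79 ± 0.16 (limma, adjusted p = 0.0184). THBS1 rose from 9.05 and 9.25 to 11.12 and 11.14 in MDA-MB-231, and from 8.71 to 10.32 in MDA-MB-453 (1.86 ± 0.17, adjusted p = 0.0184). The arms of both genes did not overlap in either line or between lines.

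A further 7 genes completed the 10 with the largest difference common to both lines upward, ranked by the smaller of the 2 differences. ZG16B, a secreted lectin-like protein, rose by 4.29 in MDA-MB-231 and 1.94 in MDA-MB-453, and the serine protease PRSS23 by 1.48 and 2.87. The effect of both differed between the lines (limma, adjusted p = 0.0027 and 0.0238). HSPA2, a heat shock protein of the HSP70 family known from spermatogenesis, rose from 5.54 and 5.62 to 6.99 and 7.05 in MDA-MB-231 and from 5.67 to 7.66 in MDA-MB-453. IFI27, a mitochondrial protein induced by type I interferon, rose from 10.27 and 9.63 to 11.53 and 11.23, and from 6.88 to 8.68. HSPA5, whose promoter is printed above, rose from 8.59 and 8.39 to 10.06 and 9.86, and from 6.84 to 8.23, an effect of 1.44 ± 0.17 (limma, adjusted p = 0.0306). The arms of these 3 genes did not overlap within a line. HSPA5 rose by 1.47 and 1.38 in the 2 lines, HSPA2 by 1.44 and 1.99, and IFI27 by 1.43 and 1.80. DENND4C, a regulator of RAB GTPases, rose by 1.31 and 1.28, and the membrane protein BRI3 by 1.26 and 1.35.

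The 10 with the largest common difference downward were, in order, CDK1, SPC25, RIDA, PSMA4, ADCY3, EPHX4, TMEM64, HAT1, RPL7 and GPR180. CDK1, the kinase that starts mitosis, read 11.86 and 12.32 on the MDA-MB-231 controls, 10.33 and 10.94 with shRNA-1, and 10.60 and 9.10 in MDA-MB-453. Its differences were -1.46 and -1.50, and its other probe gave -1.49 and -1.62. SPC25, a subunit of the NDC80 kinetochore complex, fell from 8.83 and 8.55 to 7.33 and 7.27 and from 7.72 to 6.14. HAT1, which acetylates newly made histone H4, fell from 10.40 and 10.33 to 8.82 and 8.95 and from 10.55 to 9.32. The arms of these 3 genes did not overlap in either line, and their adjusted p was 0.0306 each (limma).

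The other 7 include genes of protein turnover, translation and signalling. PSMA4, an alpha subunit of the proteasome core, fell from 12.65 and 12.82 to 11.53 and 11.37 and from 11.65 to 10.27. The ribosomal protein RPL7 fell by 1.56 in MDA-MB-231 and 1.22 in MDA-MB-453, and the adenylyl cyclase ADCY3 by 1.55 and 1.27. RIDA, which clears reactive imines, the epoxide hydrolase EPHX4 and the membrane proteins TMEM64 and GPR180 had effects between -1.31 and -1.35. Of the 20 genes with the largest common difference all 20 were called and 18 showed no measurable difference between the lines. The genes were ranked on these same differences, so both counts follow in large part from the ranking. The test between lines also has only 1 MDA-MB-453 array per arm. All 20 were also called under each of 6 settings that kept every array and gene and had no replicate block. These were no background correction, an offset of 50, median scaling, averaged probes, an intensity trend, and equal weight of the lines. TEX19 alone of the 20 was called with the replicate number as a block, or with each MDA-MB-231 array left out in turn.

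**Figure D3:**
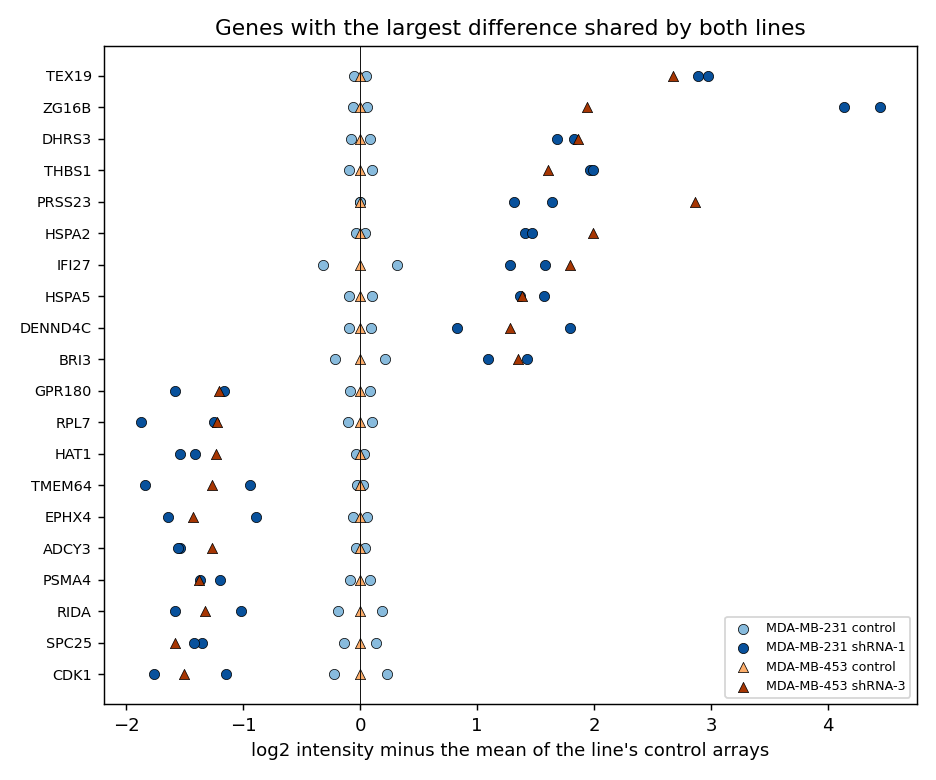
Log2 intensity minus the mean of the controls of the same line (horizontal axis) for the 10 genes with the largest common difference in each direction. Each point is an array, with circles for MDA-MB-231, triangles for MDA-MB-453 and dark colours for labelled knockdown. The MDA-MB-453 array labelled knockdown lies near the 2 MDA-MB-231 ones for most genes, and away from them for ZG16B and PRSS23.

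The largest effects in the arm term were those of MDA-MB-231. Of the 15 genes called higher with the largest effect, 14 differed between the lines, TEX19 being the exception. HLA-DRA, the alpha chain of an MHC class II molecule, rose from 6.35 and 5.84 to 11.21 and 11.35 in MDA-MB-231, and read 6.79 and 7.15 in MDA-MB-453. Another HLA-DRA probe, detected on 5 arrays, had differences of 6.87 in MDA-MB-231 and -0.34 in MDA-MB-453. ADIRF, an adipogenesis regulatory factor, had differences of 5.06 and 0.40. JAG1, a Notch ligand, had 3.86 and 0.62, and TXNIP, an inhibitor of thioredoxin, 3.86 and 0.34. The lysosomal fucosidase FUCA1 (3.37 and 1.02), the serine synthesis enzyme PHGDH (3.29 and 0.88) and PLAAT4, a retinoid-induced phospholipase (3.51 and 0.71), had the next largest differences in MDA-MB-453 of these 15 after TEX19 and ZG16B. ITGB4, an integrin subunit of hemidesmosomes, had 3.90 and 0.12.

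Of the 15 called lower with the largest effect, 12 differed between the lines. KISS1, the precursor of kisspeptin, fell from 10.53 and 9.82 to 5.14 and 4.92 in MDA-MB-231 and from 5.93 to 4.84 in MDA-MB-453. The 3 without a measurable difference between lines were RRM2, the small subunit of ribonucleotide reductase, GPR162, an orphan receptor, and HSPA14, a ribosome-associated chaperone. GPR162 fell by 2.15 in MDA-MB-231 and 1.18 in MDA-MB-453, and HSPA14 by 2.13 and 1.20. POLR3G, a subunit of RNA polymerase III, fell by 2.87 and 0.77, and PDSS1, which makes the tail of coenzyme Q, by 2.93 and 0.73.

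Replication genes of the G1/S list were lower in both lines. Of 39 tested, 15 fell and 0 rose (38.5%, against 5.63% of all genes), and the median effect was -0.65, with -0.84 in MDA-MB-231 and -0.40 (-0.04 under median scaling) in MDA-MB-453, against medians near 0 for all genes. RRM2 fell from 8.76 and 8.96 to 6.37 and 6.81 in MDA-MB-231 and from 8.46 to 7.41 in MDA-MB-453. The phosphatase CDC25A, which activates CDK2, fell by 1.83 and 0.72, the clamp loader subunit RFC3 by 1.84 and 0.70, and GINS4, part of the replicative helicase, by 1.66 and 0.41. Cyclin E1 (CCNE1) and the polymerase subunit POLE2, chosen here because their values in the 2 lines were close, fell by 1.33 and 1.04 and by 1.12 and 1.18. Of the 15 calls, 5 differed between the lines. The G2/M list did not share this direction. Of 35 genes 1, CDK1, fell (2.86%) and 3 rose (8.57%, against 5.05% of all genes), with a median of -0.02. The 3 were the kinetochore proteins CENPE (1.20 and 0.89) and CENPF (1.46 and 0.71) and the phosphatase CDC25B (1.71 and 0.29). The 2 shRNA-1 arrays lay apart for CENPE, at 9.76 and 8.77 against 7.97 and 8.16 on the controls. CENPF likewise read 10.45 and 9.37 against 8.49 and 8.42.

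Genes of ribosome biogenesis and other MYC targets were lower as well. Of 52 tested, 10 fell (19.2%, against 5.63% of all genes) and 0 rose. The medians were -0.74 in MDA-MB-231 and, turning to 0.07 under median scaling, -0.28 in MDA-MB-453. BOP1, a processing factor of the large ribosomal subunit, read 12.20 and 12.16 against 11.01 and 10.79 in MDA-MB-231, and 11.45 against 10.38 in MDA-MB-453. RRS1, another assembly factor, fell by 2.26 and 0.41, the nucleolar protein NOLC1 by 1.54 and 0.69, and ODC1, the first enzyme of polyamine synthesis, by 1.48 and 0.63. In the MYC network itself 2 of 9 genes rose (22.2%, against 5.05% of all genes) and 0 fell. They were MXD4 (1.68 and 0.54) and MNT (0.93 and 0.46), both partners of MAX that oppose MYC at its sites.

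In the mitochondrial, proteasomal and ribosomal lists the share that fell ranged from 4.17% to 14.5%, against 5.63% of all tested genes. Of 76 mitochondrial ribosomal proteins 11 fell and 0 rose (14.5%), with medians of -0.24 in MDA-MB-231 and, turning to 0.06 under median scaling, -0.28 in MDA-MB-453. MRPL19 fell by 1.53 and 0.98 and MRPS28 by 1.16 and 1.00. Of 72 genes of oxidative phosphorylation 6 fell (8.33%), among them the ATP synthase subunits ATP5PB (-1.59 and -0.62), ATP5MC3 (-1.43 and -0.78) and ATP5F1C (-0.98 and -0.83). Of 32 proteasome subunits 4 fell (12.5%), PSMA4, PSMD14 (-1.49 and -0.56), PSMA5 (-1.20 and -0.35) and PSMA2 (-0.74 and -0.88). Of 72 cytosolic ribosomal proteins 3 fell (4.17%), RPL7, RPS7 (-1.31 and -0.96) and RPL17 (-1.12 and -0.44), and RPL28 rose (0.93 and 0.40). Ribosomal proteins have many near-identical pseudogenes, so their probes may read more than 1 transcript. Of 33 aminoacyl-tRNA synthetases and 25 histone genes 0 were called by limma, and the largest effects in these lists, -1.49 for MARS2 and 1.14 for H2BC5, had adjusted p-values of 0.0518 and 0.0668.

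The downward lists depend on how the arrays were scaled. With median scaling in place of quantile normalisation, the median difference of all tested genes was -0.11 in MDA-MB-231 and 0.34 in MDA-MB-453, so directions in MDA-MB-453 are read against that shift. The MDA-MB-453 medians then became -0.04 for G1/S, 0.07 for ribosome biogenesis, 0.06 for mitochondrial ribosomal proteins and 0.09 for the proteasome, each still below that of all genes. The falls numbered 8 for G1/S, 3 for ribosome biogenesis and 8 for mitochondrial ribosomal proteins, and 11 lysosomal and 8 interferon-stimulated genes rose. With the replicate number as a block, or with each MDA-MB-231 array left out in turn, TEX19 was the sole call, so these lists had 0. In all, the calls under median scaling included 382 of the 452 higher and 140 of the 504 lower calls.

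Of 37 lysosomal genes 13 rose (35.1%, against 5.05% of all genes) and 1 fell. Their median difference was 0.74 in MDA-MB-231 and 0.35 in MDA-MB-453. CTSF, a cysteine protease, rose from 6.10 and 5.95 to 8.64 and 8.46 in MDA-MB-231 and from 7.64 to 8.84 in MDA-MB-453. The aspartic protease CTSD rose by 3.07 and 0.40, the cysteine protease CTSB by 1.96 and 0.46, and SGSH, a sulfatase of heparan sulfate breakdown, by 1.65 and 0.69. TPP1, a tripeptidyl peptidase, and the protease CTSC, named after their values were seen, moved by like amounts in both lines in opposite directions. TPP1 rose by 1.21 and 1.22, and CTSC fell by 1.07 and 1.07. Of the 14 calls, 3 differed between the lines.

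Among interferon-stimulated genes the calls were all upward. Of 35 tested, 9 rose (25.7%, against 5.05% of all genes) and 0 fell, with medians of 0.60 in MDA-MB-231 and 0.40 in MDA-MB-453. OAS2, a sensor of double-stranded RNA, rose from 5.40 and 5.51 to 7.95 and 7.86 and from 7.58 to 8.80. The exonuclease ISG20 rose by 1.93 and 0.84 and IFI27 by the amounts given above, while IRF7, a transcription factor of the response, had 1.82 and 0.16. OAS2 and IRF7 were the 2 of the 9 calls that differed between the lines. Of 15 MHC genes 3 rose (20%), HLA-DRA, HLA-DMA (3.18 and 0.16) and HLA-F (1.33 and 0.38), the first 2 with a difference between lines.

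The unfolded protein response and ATF4 list was mixed in its median and nearly all upward in its calls. Of 37 genes 9 rose (24.3%, against 5.05% of all genes) and 1, ATF5, fell (2.7%, against 5.63%). The medians were 0.06 in MDA-MB-231 and 0.37 in MDA-MB-453. HSPA5 and DDIT3, a transcription factor of endoplasmic reticulum stress (1.88 and 0.93), showed no measurable difference between the lines. Of the 10 calls 4 differed between the lines, among them PHGDH and DDIT4, an inhibitor of mTOR signalling (3.73 and 0.12). In the hypoxia and glycolysis list 7 of 32 genes rose (21.9%) and 0 fell, but 6 of the 7 differed between the lines. ALDOC, an aldolase, had 3.50 and 0.17, NDRG1 2.49 and 0.13 and VEGFA 2.05 and 0.18. The remaining call, the enolase ENO2, had 0.64 and 0.91.

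Epithelial genes were called mainly through MDA-MB-231. Of 17 junction and keratin genes 7 rose (41.2%, against 5.05% of all genes) and 1, the junction protein CGN, fell (5.88%, against 5.63%). Of these 8 calls, 7 differed between the lines. KRT19 read 7.98 and 7.45 against 12.27 and 12.11 in MDA-MB-231, and 12.78 against 12.81 in MDA-MB-453. The protease inhibitor SPINT2 had 3.74 and 0.42, KRT7 2.49 and 0.51 and the desmosomal protein DSP 2.31 and 0.80, while KRT8, with 1.43 and 0.83, did not measurably differ between lines. Some markers of the MDA-MB-453 line moved with this group, and 3 of them, KRT8, KRT19 and CLDN7, are members of both lists. The markers' summed linear level over 19 genes was 4556 and 5074 on the MDA-MB-231 controls, 12821 and 12149 with shRNA-1, and 68061 and 74156 on the MDA-MB-453 arrays. KRT19 carried much of this, and without it the MDA-MB-231 sums were 4304 and 4899 on the controls and 7872 and 7742 with shRNA-1. FOXA1, a luminal transcription factor on the marker list, went the other way in MDA-MB-231, from 8.01 and 8.53 to 4.43 and 4.55. SPDEF read 4.33 and 4.63 against 9.46 and 9.33 there, and AGR2 4.56 and 4.27 against 9.10 and 9.17. FOXA1, SPDEF and AGR2 are not among the tested genes. KRT18 read 7.57 and 7.69 against 7.53 and 7.83. The MDA-MB-453 control read 6.93 for KRT18 and 5.86 for MUC1, which read 5.34 and 5.83 on the MDA-MB-231 controls. KRT18 and MUC1 were thus not clearly higher in MDA-MB-453. On the MDA-MB-231 controls 10 and 11 of the 19 were detected, and 14 on each array labelled knockdown. RAB25, PIP and AZGP1 were at background on all 4 MDA-MB-231 arrays. In bulk RNA, more cells of a type and more RNA per cell cannot be told apart, and the part of these markers in the group's rise was not tested. Of the 8 markers tested 5 rose (62.5%, against 5.05% of all genes), among them MUC1 (2.97 and 0.79) and CLDN7 (1.57 and 0.36). Markers of MDA-MB-231 itself were higher in sum too, at 71244 and 77407 on its controls and 100386 and 105027 with shRNA-1. S100A4, which is not among the tested genes, carried much of this, at 6.11 and 5.40 against 14.49 and 14.37. The other markers were mixed. IL6 read 7.91 and 7.78 against 11.27 and 11.58, VIM 14.45 and 14.37 against 14.31 and 14.38, and ZEB1 6.29 and 6.52 against 5.30 and 5.04. Only 4 markers of MDA-MB-231 were detected on all 6 arrays, and 0 of them were called by limma, with CXCL8 (-0.26) and MSN (0.20) having the largest effects.

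Chromatin regulators were called in small numbers, beside 5.05% of all genes called higher and 5.63% called lower. Of 26 Polycomb genes 3 fell (11.5%), BMI1, the ring finger protein PCGF6 (-2.21 and -0.62) and SCML2 (-1.19 and -0.31), and 1 rose (3.85%), PCGF2 (0.75 and 0.55), which takes the place of BMI1 in related complexes. Of 26 genes of H3K9 methylation and SETDB1 partners 2 fell (7.69%). They were CHAF1B, a subunit of the chromatin assembly factor that loads histones at replication forks (-1.31 and -1.01), and UHRF1, which guides DNA methylation after replication (-1.04 and -0.73). Of 240 ZNF genes, many of whose products recruit SETDB1 through TRIM28, 9 rose (3.75%) and 2 fell (0.833%), against 5.05% and 5.63% of all tested genes. The median was 0.17 in MDA-MB-231 and 0.16 in MDA-MB-453. ZNF616 rose by 1.08 and 1.30 and ZNF721 by 1.33 and 0.94, while ZNF22 fell by 1.35 and 0.49. Of the SPANX, MAGE and GAGE germline list, with which TEX19 was counted, 3 genes were detected on all arrays, and TEX19 was the sole call.

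The remaining lists were short, and their shares stand beside 5.05% of all tested genes called higher and 5.63% called lower. Of 14 mesenchymal and matrix genes 3 rose (21.4%), THBS1, the laminin chain LAMC1 (2.14 and 0.97) and the metalloproteinase inhibitor TIMP2 (1.69 and 0.37). Of 16 genes of the TGF-beta and BMP response 3 rose (18.8%), PMEPA1 (1.98 and 0.57), SMAD3 (0.82 and 0.53) and BMP4 (2.76 and 0.09). Of 22 immediate-early genes 3 rose (13.6%), KLF2 (1.43 and 0.78), KLF4 (0.80 and 0.70) and IER3 (0.90 and 0.34). Among 27 genes of sterol and fatty acid synthesis the enzymes IDI1 (-0.80 and -1.20), SQLE (-0.99 and -0.75) and ACAT2 (-1.13 and -0.45) fell (11.1%). The regulator SREBF1 (2.43 and 0.55) and the reductase TM7SF2 (1.60 and 0.28) rose (7.41%). Of 14 breast cancer stem cell markers JAG1, ITGB4 and KLF4 rose (21.4%) and BMI1 fell (7.14%). Of 19 CDK inhibitor and p53 target genes CDKN2D (1.20 and 0.55) and the death receptor TNFRSF10B (1.48 and 0.23) rose (10.5%). The p53-induced phosphatase TIGAR (-1.71 and -1.04) fell (5.26%). TNFRSF10B was also the call among 21 apoptosis regulators (4.76%), ICAM1 (1.72 and 0.64) that among 9 inflammatory genes (11.1%) and MT1F (2.86 and 0.74) that among 5 metallothioneins (20%).

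**Figure D4:**
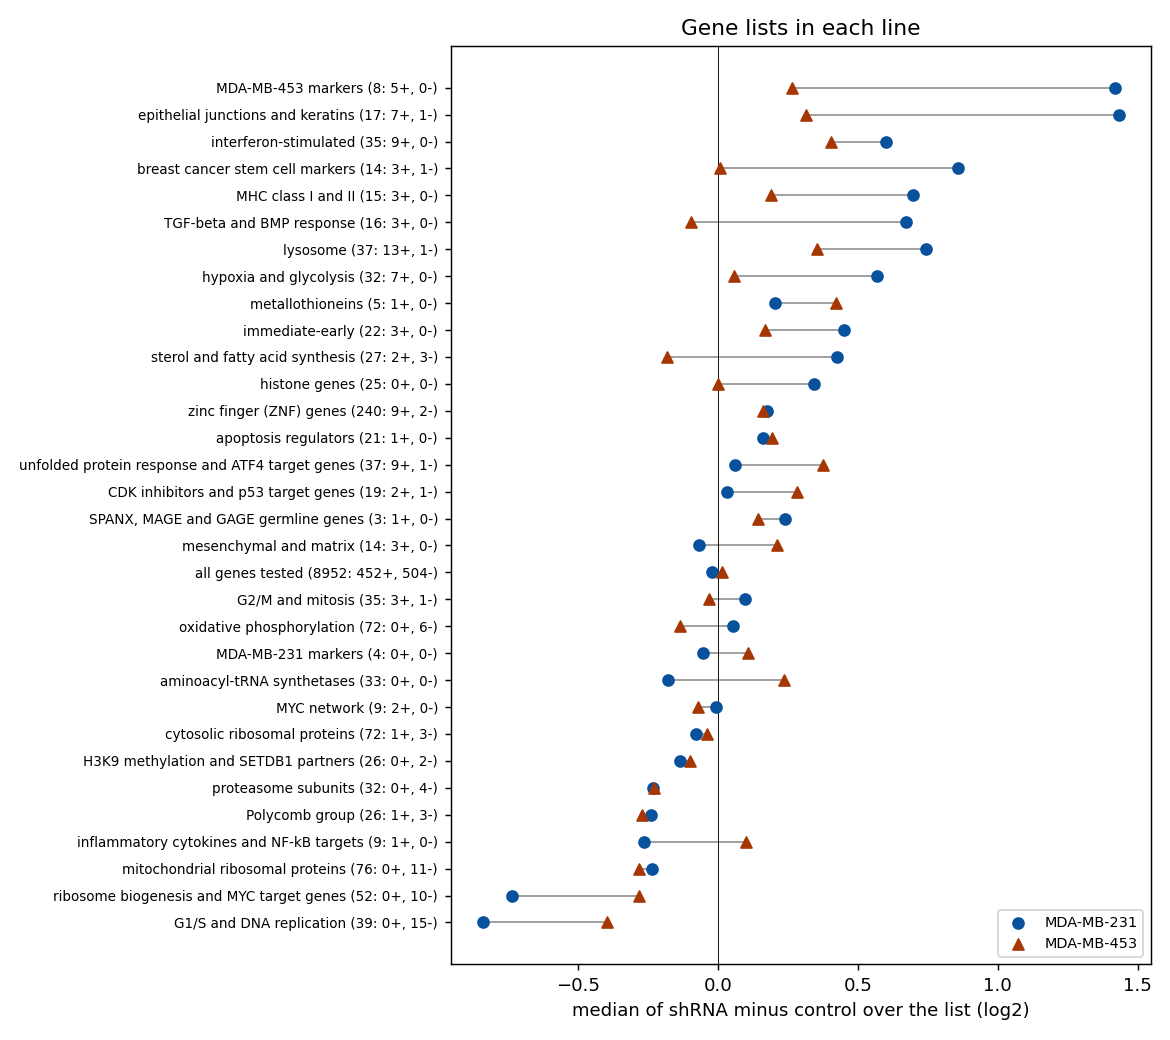
Median log2 difference of labelled knockdown and control (horizontal axis) over the tested genes of each list, with circles for MDA-MB-231 and triangles for MDA-MB-453. Brackets give the genes tested and those called higher (+) and lower (-). The 2 lines lie close for mitochondrial ribosomal proteins, the proteasome and ZNF genes, and far apart for epithelial genes and the breast cancer stem cell markers.

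Some genes moved strongly in opposite directions and so were not called in the arm term. Of the 22 that were at least 2-fold apart in opposite directions, 14 were higher in MDA-MB-231 and lower in MDA-MB-453. ID1, an inhibitor of basic helix-loop-helix factors and a target of BMP signalling, read 8.25 and 8.12 against 11.83 and 11.80 in MDA-MB-231, and 10.51 against 7.44 in MDA-MB-453. Its relative ID3 had differences of 2.32 and -2.01 and DOCK2, an activator of RAC, 2.22 and -2.64. CYFIP2, of the WAVE actin complex, had -2.87 and 1.21, and RAB3IL1, an exchange factor of RAB GTPases, -3.29 and 1.19. The limma test of the difference between lines gave adjusted p-values between 2.88e-05 and 0.000327 for these 5 genes, while their arm terms had adjusted p-values of 0.148 or more.

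The place of a gene on the chromosomes went with its difference in MDA-MB-231. The median difference there was -0.69 over 156 tested genes of chromosome 13, -0.43 for chromosome 2 and 0.30 for chromosome 4. The MDA-MB-453 medians of all chromosomes lay between -0.06 and 0.14. The calls followed this in part. On chromosome 13, 14.7% of tested genes were called lower and 1.92% higher, on chromosome 2 12.6% and 1.98%, and on chromosome 4 2.54% and 9.21%. For chromosome 8 the shares were 11.3% and 3.77%, and for chromosome 10 7.94% and 6.47%. The MDA-MB-231 medians of chromosomes 8 and 10 were -0.19 and -0.37. HAT1, SPC25, ADCY3, RRM2, CDCA7, CHAC2, ODC1, PSMD14, RPS7, MRPL19 and ATP5MC3, all called lower, lie on chromosome 2, and GPR180 and RFC3 on chromosome 13. Others called lower, among them RIDA, TMEM64, RPL7, BOP1, RRS1, GINS4 and SQLE, lie on chromosome 8. BMI1, CDK1, PDSS1, PCGF6, HSPA14 and NOLC1 are among those on chromosome 10. The 70 genes called lower on chromosome 2 had a median difference of -0.59 in MDA-MB-453 and the 23 on chromosome 13 one of -0.70, against -0.62 over all genes called lower. Calls with the same direction in both lines follow from the test itself, so these values are a description. The part of the regional shifts in the calls was not tested.

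**Figure D5:**
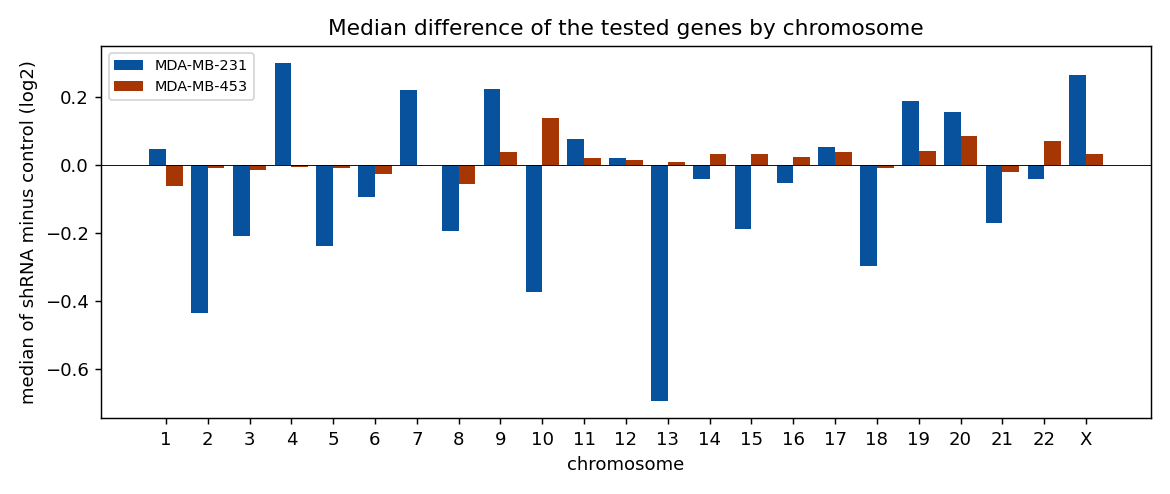
Median log2 difference of labelled knockdown and control over the tested genes of each chromosome (vertical axis), with blue bars for MDA-MB-231 and brown bars for MDA-MB-453. Chromosomes 13, 2 and 10 are lowest in MDA-MB-231, at -0.69, -0.43 and -0.37, while the MDA-MB-453 medians stay between -0.06 and 0.14.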

How the data were processed

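RNA of 6 samples was measured on Illumina bead arrays. Per the file headers, the authors deposited non-normalized probe intensity values with a detection p-value beside each, for 48107 probes. The deposited processed values are on a log2 scale and equal the quantile-normalized log2 intensities to within 5.26e-09. For the scanner software and its version, the sources used here give none. Gene symbols came from GEO's platform annotation, where 30113 probes have 1 symbol, 8 have several and 17986 have none, and only the first kind was tested. Entrez identifiers of 30074 probes were found in RefSeq's GRCh38.p14 table, and 0 symbols changed.

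Intensities were background-corrected with limma 3.58.1 in R 4.3.3 (normexp, whose negative controls were inferred from detection p-values, with an offset of 16), quantile-normalized over the 6 arrays and put on the log2 scale. The brightest probe detected on all 6 arrays stood for each gene. Among 2238 genes with several such probes, opposite calls were made for 0. Small differences in MDA-MB-453 could still change sign between probes. A further such probe gave -0.07 there for VEGFA and -0.05 for TNFRSF10B, against 0.18 and 0.23 for the probes used. For PCGF6 a further probe gave -0.60 against -0.62. limma's moderated two-sided test (lmFit, eBayes, Benjamini-Hochberg adjustment) was applied to the arm term of an additive fit of line and arm, with 3 residual degrees of freedom and a prior worth 4.80, and the difference between lines in a fit of 4 group means, with 2 and 6.71. The second fit assumes that the lone MDA-MB-453 arrays vary like those of MDA-MB-231. The scripts were tested on simulated data. The number of arrays limits the precision.

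Genes were named by rule: SETDB1, BMI1 and MYC, the 15 called genes with the largest effect in each direction, the 10 in each direction with the largest smaller difference of the 2 lines, up to 4 called members of each of 31 gene lists (with none called, the 2 largest), and 5 genes with opposite signs. CCNE1, POLE2, TPP1, CTSC, ATF5, CGN, ENO2, ACAT2 and the markers FOXA1, SPDEF, AGR2, KRT18, S100A4, IL6, VIM and ZEB1 were named after their values were seen. The members and the lists were chosen with earlier results of these data known. The labels do not say whether the replicate numbers in the titles pair the MDA-MB-231 arrays. Deviations of the replicate 1 arrays from their group means correlated at 0.0798 across genes. That value cannot decide the pairing, so results with the replicate number as a block are given as an alternative. Alternatives covered the background, scaling, detection filter, probes, variance prior, replicate block, weight of the lines and each array left out.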

Additional observations from a re-analysis of the deposited data

Results flagged for a closer look

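The genes here were picked out because the effect of the hairpins differed between the lines by the limma test of that difference (adjusted p below 0.05). Only the 131 genes named by rule were considered. Over all tested genes 1070 had such a difference. Each value is the MDA-MB-231 difference minus the MDA-MB-453 difference on the log2 scale. Among genes that rose in the arm term, the effect exceeded that of MDA-MB-453 most for HLA-DRA (4.82), ADIRF (4.66), KRT19 (4.45), ITGB4 (3.77), DDIT4 (3.61), TXNIP (3.53), ALDOC (3.33), SPINT2 (3.32), JAG1 (3.24) and HLA-DMA (3.02). It was also larger in MDA-MB-231 for CYP1B1 (2.98), SPRY1 (2.91), PLAAT4 (2.79), CTSD (2.67), BMP4 (2.67), PHGDH (2.41), NDRG1 (2.36), ZG16B (2.35), FUCA1 (2.35), MUC1 (2.18) and MT1F (2.12). Smaller gaps of the same kind were seen for KRT7 (1.98), SREBF1 (1.88), VEGFA (1.87), IRF7 (1.66), DSP (1.51), CTSB (1.50), CDC25B (1.41), PMEPA1 (1.41), CTSF (1.32), TIMP2 (1.32), TM7SF2 (1.32), TNFRSF10B (1.24), OAS2 (1.23), ZNF841 (1.22), CLDN7 (1.21), LAMC1 (1.17) and MXD4 (1.14). PRSS23 alone of those that rose had the larger effect in MDA-MB-453 (-1.39). Among genes that fell, the fall was deeper in MDA-MB-231 for KISS1 (-4.06), FANCB (-2.44), PDSS1 (-2.21), POLR3G (-2.10), ME2 (-2.08), CMTR2 (-2.02), CDCA7 (-1.95), RRS1 (-1.85), MOCOS (-1.79), AIF1L (-1.75), PCGF6 (-1.59), CHAC2 (-1.52), CAPZA1 (-1.27), GINS4 (-1.25), RFC3 (-1.15), CDC25A (-1.11) and MRPL3 (-1.07). Named genes that were at least 2-fold apart in opposite directions in the lines were ID1 (6.69), DOCK2 (4.85), ID3 (4.33), CYFIP2 (-4.08) and RAB3IL1 (-4.48). Other named genes not called in the arm term with a difference between lines were H2BC5 (1.79), H3C13 (1.81) and MARS2 (-2.19). All replicates of this test are MDA-MB-231 arrays, and each hairpin was used in 1 line, so hairpin and line cannot be told apart.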

How the results depend on the processing

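The alternatives moved the number of calls far more than the sizes of the effects. Without background correction 1017 genes were called, with an offset of 50, 974, with averaged probes 953 and with an intensity trend 976. Median scaling gave 626, equal weight of the lines 2461, detection on at least 2 arrays 5 of 13022 genes (TEX19, DHRS3, THBS1, GDF15 and S100P), no detection filter 4 of 20046, and a fit on the genes detected on at least 2 arrays adjusted over the 8952, added after the data were seen, 343. With 1 array left out the calls ranged from 1, whichever MDA-MB-231 array was left out, to 3974, without the MDA-MB-453 control, where the term rests on MDA-MB-231 alone. The replicate block left 1 arm call, TEX19, and 548 calls of a difference between lines, from 956 and 1070. That second count was 2161 under median scaling, 1766 with detection on at least 2 arrays and 313 to 2200 with 1 array left out. The BMI1 effect stayed at -1.17 but missed the threshold with detection on at least 2 arrays, with no filter (adjusted p = 0.0754) and with the block. It ranged from -1.26 to -1.07 with 1 array left out, also past the threshold only without an MDA-MB-453 array. SETDB1 (-0.22 to -0.12) and MYC (-0.26 to -0.09) were not called under any of the 16 alternatives. The correlation of the lines' differences was 0.167 with detection on at least 2 arrays and 0.155 with no filter. DOCK2 reversed to -0.21 with equal weight of the lines, and CXCL8, at -0.26 in the report, ranged from -0.63 to 0.22 with 1 array left out, the positive value being that without MDA-MB-231 shRNA-1 replicate 1. Of the 956 calls, 456 (319 higher and 137 lower) were kept under all 6 settings named in the report. The cause of these changes was not tested, except that tests over more genes or fewer arrays adjust and estimate over other sets by construction.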
